A study of Capra hircus with 8 samples.

Results

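The genes described here are 35 goat genes that carry only a LOC symbol, the placeholder that RefSeq gives to a gene model without an assigned name, and whose read levels in skin did not overlap between cashmere goats and milk goats. They were chosen by their measured levels in the first of the deposited gene tables. Reads were converted to counts per 1000000 reads of the column total (CPM). A LOC gene was taken where its mean over the 8 libraries was at least 3 CPM and the lowest library of one breed was at least 1.3 times the highest library of the other. That ratio is called the gap below. Of 3043 LOC genes in the table, 979 reached the mean, and 35 of these passed, 19 with higher levels in cashmere goats and 16 with higher levels in milk goats. A pair of gene clusters, which hold 54 genes, 50 of them LOC genes, was left out by the same rule, and the whole table lists 18815 genes.

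The study compared the skin of 2 kinds of goat (Capra hircus): cashmere goats, bred for a fine seasonal undercoat, and milk goats, bred for dairy. Each group has 1 library at month 3, 6, 9 and 12, so 4 libraries per breed, with no treatment. The labels give these months as ages of the animals, while the stated design speaks of different months, and which is meant is not settled. They do not name the strains, the number of animals behind a library or the site on the body, and the extraction text speaks of embryos although the tissue is given as skin. The 4 months of a breed served as its replicates, so errors of CPM and FPKM below are standard deviations (SD) over months and libraries together. Errors of log2 differences are standard errors (SE), derived from the difference and its F statistic in the model of month and breed.

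A LOC symbol says nothing about function. Such models are often copies in fast-changing gene families, pseudogenes, which are gene copies that have lost an intact coding frame but can still be transcribed, or ruminant genes without a clear human counterpart. The files and the reference table used here do not give their products. What can be said of each is its class in RefSeq and its named neighbours in the RefSeq annotation of the goat assembly ARS1.2. Where the neighbours are known in the human genome to flank a gene family, that is given as background and not as the identity of the goat gene. Reads of close copies can be split or shared by the authors' mapping, so the levels of pseudogenes and of genes that lie in families are uncertain in that respect.

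Libraries differed in depth by breed. Totals over the listed genes were 7480053 to 8718429 reads in cashmere goats and 11333734 to 13899750 in milk goats, so depth and breed cannot be told apart, and the floor of detection, set at 3 reads, corresponds to 0.216 to 0.401 CPM. On the first principal component, which held 48.7% of the variance, 2 milk goat libraries stood apart, that of month 12 at -70.9 and that of month 3 at -51.8, while the other 6 ranged from -7.4 to 46.2. Without this pair, all of the 35 genes but LOC102170968 and LOC108634347 still passed the rule. Leaving out libraries cannot narrow a gap, so a gene can drop out only through its mean. Nothing is read from the genes that stayed. Keratinocyte genes of the epidermis marked all libraries as skin, with 10 listed markers summing to 31090 to 37980 CPM in cashmere goats and 29720 to 54240 in milk goats, while FLG and SPRR1B were not listed under those symbols. Several marker lists moved with breed. The smooth muscle list (9 genes) had 0 genes with a higher level in cashmere goats, a median log2 difference of -0.78 and 3 genes called lower. The list of nuclear-retained and splicing transcripts, read as a sign of RNA quality, summed to 3928 to 6248 CPM in cashmere and 8320 to 17560 CPM in milk goats, with 8 of 16 genes called lower in cashmere goats, and the milk goat library of month 12 was highest. Of the Schwann cell and nerve list, 2 of 7 tested genes were called lower. Other lists leaned the other way. Of 16 hair shaft keratins looked for, 8 were listed, and 8 of 8 had higher fitted levels in cashmere goats (median log2 difference 1.44). So had 10 of 10 tested hair matrix regulators (0.98). The sums overlapped between the breeds. Hair shaft keratins summed to 885.5 to 2062 CPM in cashmere and 67.48 to 1829 CPM in milk goats. Hair matrix regulators summed to 716.5 to 1495 and 218.7 to 1108 CPM. Of these 2 lists edgeR called 0 genes, with 2 and 6 at an unadjusted p under 0.05, and DESeq2 called 0 and 1. Of the immediate early genes 10 of 11 had higher fitted levels (0.61), with 2 called higher by edgeR. Of 5 tested melanocyte genes 3 had higher fitted levels (1.18), with 0 called by edgeR. The melanocyte sums overlapped, at 104.8 to 146.4 CPM in cashmere and 94.1 to 156.8 CPM in milk goats. The heat shock list, read as a sign of RNA handling, summed to 3556 to 4457 CPM in cashmere and 4816 to 7806 CPM in milk goats. Of its 6 genes 3 had higher fitted levels in cashmere goats, and edgeR called 0 and DESeq2 3. The median over all tested genes was 0.03. Milk gland markers summed to 0.535 to 28.5 CPM over 6 genes in cashmere goats and to 0.719 to 7.32 CPM in milk goats. The part of these lists in the values below was not tested.

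Among all 12552 genes at a mean of 3 CPM or more, 1.24% passed the same rule towards cashmere goats and 1.03% towards milk goats. LOC genes passed at 1.94% and 1.63%, and genes with another symbol at 1.18% and 0.976%. These shares are descriptions of the choice, and nothing is read from them. A further 27 and 24 LOC genes met the gap but not the mean, among 2064 LOC genes below it. The members just inside the gap were LOC102187748 at 1.339 and LOC102170968 at 1.303, and the genes just outside were LOC102175005 at 1.28, LOC108634461 at 1.242 and LOC108635392 at 1.227 towards cashmere goats and LOC102168414 at 1.286, LOC108636779 at 1.27 and LOC102179511 at 1.265 towards milk goats. At the minimum mean, LOC102172488 was inside at 3.28 CPM and LOC102170172 outside at 2.76 CPM.

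**Figure D1:**
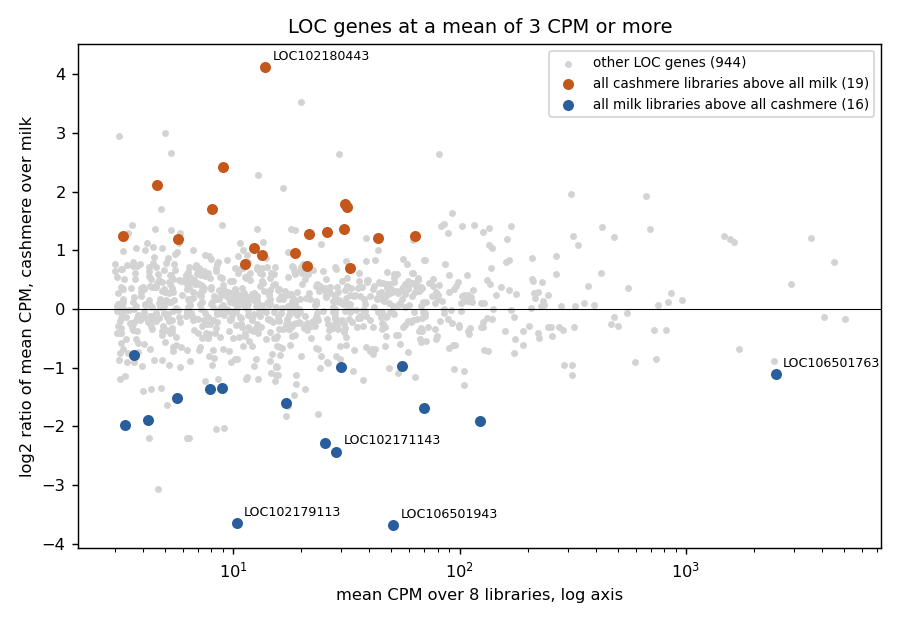
Each point is 1 of the 979 LOC genes, placed by its mean CPM over 8 libraries (log axis) and by the log2 ratio of its mean CPM in cashmere over milk goats. Orange and blue points are the 19 and 16 genes chosen for not overlapping. Some grey genes have ratios as large but overlap between the breeds in at least 1 library or miss the gap.

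LOC102180443 had the widest separation towards cashmere goats. RefSeq classes it as a transcribed pseudogene on chromosome 2 of ARS1.2, between RESP18 and PTPRN, both known from neuroendocrine secretory granules. It was read at 27.9, 18.5, 25.9 and 32.8 CPM in cashmere goats at months 3, 6, 9 and 12, and at 1.59, 0.701, 1.29 and 2.44 CPM in milk goats. Every cashmere library lay far above every milk library, with a gap of 7.598. The ratio of the breed means was 17.46, and the log2 difference from the model of month and breed described below was 4.06 ± 0.22 (SE). The lowest library, milk goats at month 6, held 9 reads, with an exact Poisson 95% interval of 0.321 to 1.33 CPM. Within single months the fold lay between 13.44 and 26.43. Nearby genes differed far less. DNPEP, an aminopeptidase gene, had 11.5 ± 1.3 CPM in cashmere and 8.53 ± 0.912 CPM in milk goats (SD, n = 4 per breed), with a gap of only 1.08, and PTPRN had 0.581 ± 0.393 and 0.908 ± 0.407 CPM. DES, the gene of the muscle intermediate filament desmin, lies 3 genes away and was lower in cashmere goats without overlap, with 129.4 to 238.6 CPM in cashmere and 432.7 to 932.9 CPM in milk goats. LOC102178119, 4 genes to the other side, was also lower without overlap but below the gap, with 7.34 to 17.5 and 18.1 to 50.9 CPM.

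LOC106501943 had the widest separation towards milk goats. It is protein coding in RefSeq and lies on chromosome 3 between KYAT3 and LRRC8B, which in the human genome flank the guanylate-binding proteins, GTPases of cell-autonomous immunity that interferon induces. Its levels were 5.30, 10.2, 6.19 and 7.75 CPM in cashmere goats and 108.8, 65.5, 114.9 and 88.6 CPM in milk goats at months 3, 6, 9 and 12. The lowest milk library was 6.433 times the highest cashmere library. The log2 difference was -3.79 ± 0.32 (SE). Of all genes at a mean of at least 3 CPM, 61.7% had a higher mean in cashmere goats. That share was not counted for genes with at least 10 reads. Of 7 listed LOC genes between these neighbours, 4 had at least 10 reads in all, and all 4 had lower means in cashmere goats. Only LOC106501943 did not overlap: LOC102174264, for example, had 12.0, 17.9, 9.18 and 8.96 CPM in cashmere and 36.5, 25.5, 14.2 and 28.1 CPM in milk goats. Of the 8 interferon response genes tested, 0 had a higher level in cashmere goats and their median log2 difference was -0.41, while their sums were 135.6 to 300.1 CPM in cashmere and 174.8 to 300.2 CPM in milk goats. The part of an interferon response in these values was not tested.

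LOC102171143 and LOC102170968 lie close together on chromosome 5 between RBFOX2 and MYH9, the place of the apolipoprotein L genes in the human genome, whose products bind lipids and act in innate defence. LOC102171143 had 13.8, 9.32, 7.11 and 5.48 CPM in cashmere and 79.2, 39.8, 27.7 and 45.8 CPM in milk goats at months 3, 6, 9 and 12. Both breeds had their highest level at month 3, and the lowest milk library was 2.001 times the highest cashmere library. Its log2 difference was -2.51 ± 0.19 (SE). LOC102170968 was low, with 1.94, 2.21, 1.83 and 1.20 CPM in cashmere and 10.7, 6.07, 2.88 and 6.88 CPM in milk goats, and had the narrowest gap of all members. Of all 979 LOC genes at the minimum mean, 54 had a gap of at least 1 towards milk goats. No such share was counted for genes below that mean. Of all genes at the minimum mean, 61.7% had a higher mean in cashmere goats. Of 10 LOC genes in this stretch with at least 10 reads, 9 had lower means in cashmere goats, and 4 of these 9 did not overlap. Besides the pair above, which was chosen for not overlapping, these were LOC108636023 and LOC106503978, both below the minimum mean. LOC108636023 had 0.115 to 0.401 CPM (1 to 3 reads per library, at the detection limit) in cashmere and 1.15 to 5.82 CPM in milk goats. LOC106503978 had 0.229 to 0.905 and 1.48 to 2.74 CPM. The exception, LOC102171493, did not overlap in the opposite direction, with 2 to 3 reads per cashmere library and at most 1 per milk library, all at or under the detection limit. Whether these genes share reads was not tested.

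**Figure D2:**
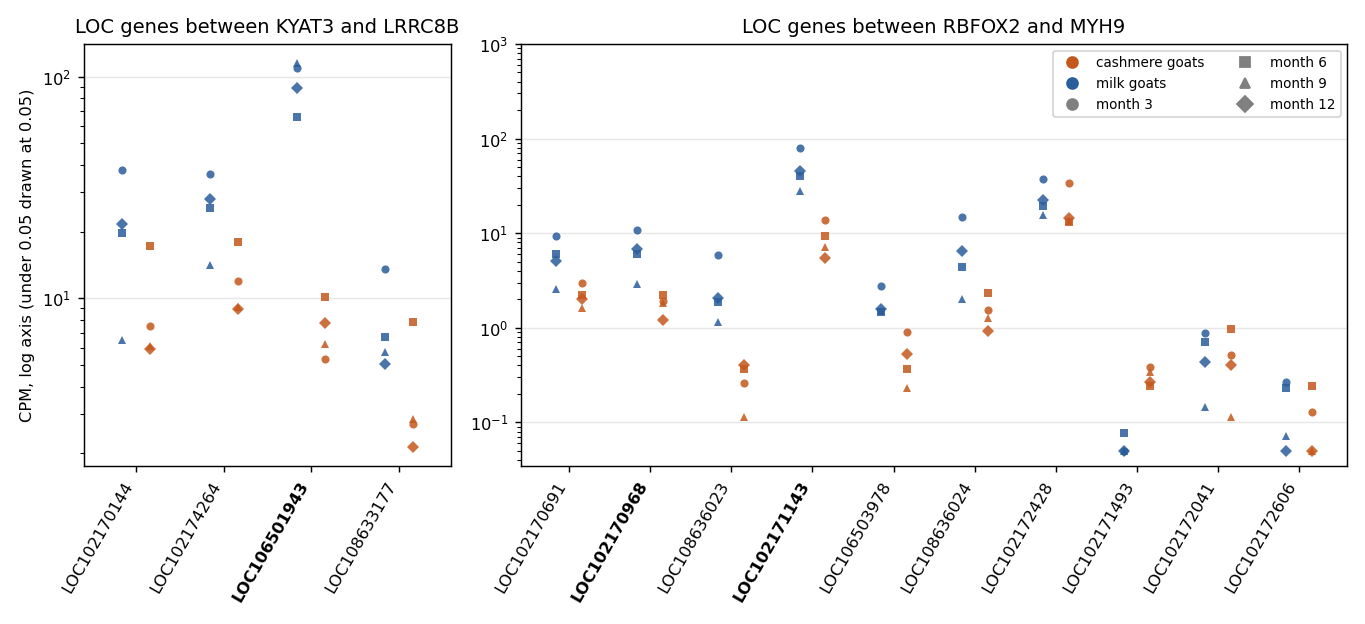
CPM (log axis, values under 0.05 drawn at 0.05) of the LOC genes with at least 10 reads in 2 stretches, between KYAT3 and LRRC8B (left, 4 genes) and between RBFOX2 and MYH9 (right, 10 genes), in gene order and with chosen genes in bold. Colours mark the breed and shapes the month, 1 point per library. Blue points of milk goats lie higher on average for 4 of 4 and 9 of 10 genes, but most genes on the left overlap.

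LOC102179113 was the third gene with a gap above 4 in either direction. It is protein coding, on chromosome 14, between NIPAL2, a magnesium transporter-like gene, and KCNS2, a potassium channel subunit. Cashmere goats had 1.68, 0.736, 0.918 and 2.81 CPM and milk goats 11.3, 11.3, 17.2 and 37.3 CPM at months 3, 6, 9 and 12. Both breeds were highest at month 12, and the gap was 4.022. The log2 difference was -3.74 ± 0.30 (SE), while NIPAL2 had 41.2 ± 7.21 CPM in cashmere and 28.5 ± 7.16 CPM in milk goats (SD, n = 4 per breed). The lowest library, cashmere goats at month 6, held 6 reads, with an exact Poisson 95% interval of 0.27 to 1.60 CPM that covers counting error only.

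LOC106501763 was by far the most abundant member. It lies on chromosome 3 between RPTN and CRNN, in the epidermal differentiation region, where the human genome holds hornerin and the filaggrins, large repetitive proteins of the cornified layer. Cashmere goats had 1470, 1760, 1644 and 1428 CPM and milk goats 3518, 3200, 3718 and 3179 CPM at months 3, 6, 9 and 12. Within each breed the highest month was only 1.233 and 1.169 times the lowest. The breed means were 1575 ± 154.7 and 3404 ± 260.6 CPM (SD, n = 4 per breed), with a log2 difference of -1.23 ± 0.22 (SE). Per length it was also highest, at 93.0 ± 10.8 and 188 ± 18.7 FPKM, the unit scaled by length and depth that the authors computed. The nearest expressed genes overlapped between the breeds. RPTN, which encodes repetin, had a log2 difference of 1.22 ± 0.54 and was not called (edgeR adjusted p = 0.198), and CRNN, which encodes cornulin, one of 1.08 ± 0.71 (SE, edgeR adjusted p = 0.355). LOC102187909, next to it, overlapped, with 119.7 to 327.9 CPM in cashmere and 113.2 to 526.5 CPM in milk goats. TCHH, the gene of the inner root sheath protein trichohyalin a few genes further, ranged from 2434 to 129600 CPM in milk goats alone. CRCT1, 5 genes to the other side, separated the opposite way, with 22.0 to 37.6 CPM in cashmere and 8.82 to 14.3 CPM in milk goats.

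The remaining genes higher in cashmere goats ranged in mean from 3.28 to 63.7 CPM, with ratios of breed means from 1.633 up. LOC102178853 and LOC102179132 are direct neighbours on chromosome 19 between ARRB2 and ALOX12, near where the human genome holds another arachidonate lipoxygenase gene, ALOX15. LOC102178853 had 55.2, 54.7, 47.4 and 36.1 CPM in cashmere and 15.6, 17.9, 8.13 and 14.3 CPM in milk goats. LOC102179132 had 6.73, 5.89, 11.5 and 7.62 CPM in cashmere and 3.71, 3.50, 3.89 and 2.79 CPM in milk goats. Both kept the breeds apart, but the month of the highest cashmere level differed, month 3 for the first and month 9 for the second. The genes on either side did not separate: ARRB2, a beta-arrestin gene, had 9.31 ± 1.44 and 9.45 ± 1.90 CPM, and ALOX12, a lipoxygenase gene of the epidermal barrier and platelets, 25.2 ± 3.12 and 20.7 ± 6.48 CPM (SD, n = 4 per breed).

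LOC102179937 lies on chromosome 23 between BTNL2, a butyrophilin-like gene beside the major histocompatibility complex (MHC) class II genes, and ELOVL5, a fatty acid elongase gene. It was even across the cashmere libraries, at 42.7, 42.9, 47.0 and 46.3 CPM, and lower in milk goats, at 18.1, 22.7, 8.49 and 20.2 CPM. The low milk value was month 9. The other 4 expressed LOC genes of the stretch were not alike: LOC102180664 had 68.9 ± 2.90 CPM in cashmere and 86.9 ± 43.2 CPM in milk goats. It too was lowest in milk goats at month 9, at 28.8 CPM, as were 7660 of all 12552 genes. LOC100860813 was higher in cashmere goats without overlap but below the gap, with 31.9 to 39.2 against 6.83 to 31.5 CPM. The list of macrophage and dendritic cell markers, cells that carry MHC class II, had 2 of 7 genes with a higher level in cashmere goats and a median log2 difference of -0.28.

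LOC102184901, between BRD1, a chromatin reader gene, and ZBED4 on chromosome 5, had 26.1, 14.8, 10.2 and 9.63 CPM in cashmere and 6.53, 1.87, 0.935 and 2.09 CPM in milk goats. Month 3 was highest in both breeds, and within each month cashmere goats had 4.002 to 10.91 times the milk level. LOC102176718, a transcribed pseudogene between SMAD1, a transducer of bone morphogenetic protein signals, and MMAA on chromosome 17, had 7.24, 5.64, 12.2 and 4.95 CPM against 1.06, 2.26, 1.37 and 2.26 CPM. SMAD1 itself overlapped, at 49.9 ± 9.76 and 43.8 ± 16.3 CPM. LOC102186806, beside RRP1 on chromosome 1, had 37.6, 42.9, 68.4 and 48.0 CPM in cashmere and 8.38, 17.4, 15.5 and 17.9 CPM in milk goats, with month 3 lowest in both. LOC102177329, beside ATP5SL on chromosome 18, had 14.5, 12.8, 10.2 and 11.9 CPM against 4.15, 3.97, 2.66 and 4.35 CPM, one of the steadiest differences over the months. These 4 genes had log2 differences of 2.49 ± 0.26, 1.95 ± 0.37, 1.63 ± 0.17 and 1.60 ± 0.19 (SE) in that order.

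LOC102175315 lies on chromosome 14 before CA3, in the row of carbonic anhydrase genes, enzymes that interconvert carbon dioxide and bicarbonate. It had the highest mean of the cashmere-high genes, with 86.5, 73.0, 104.3 and 93.8 CPM in cashmere and 48.5, 37.0, 24.7 and 41.4 CPM in milk goats. LOC102175427, on sequence not placed on a chromosome, followed with 61.1 ± 8.95 and 26.4 ± 5.32 CPM (SD, n = 4 per breed). LOC102172376, beside GATC on chromosome 17, had 37.1 ± 8.67 and 14.9 ± 1.73 CPM, while LOC102174439, a transcribed pseudogene beside the nuclear receptor gene NR4A2, had 16.6 ± 2.20 and 8.11 ± 1.31 CPM. NR4A2, an immediate early gene, overlapped narrowly between the breeds, at 12.5 ± 6.10 and 4.98 ± 1.79 CPM. LOC102172488, beside TOPBP1, was the lowest of the group, with 4.62 ± 0.634 and 1.94 ± 0.128 CPM.

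The other 6 cashmere-high genes had ratios of breed means under 2.5. LOC102187748, between the plakophilin gene PKP3 and PGGHG near the IFITM5 gene on chromosome 29, had 23.1, 28.3, 40.4 and 30.6 CPM in cashmere and 10.9, 17.3, 15.8 and 6.79 CPM in milk goats. PKP3, whose product sits in desmosomes, was at 195.9 ± 16.2 and 173.3 ± 53.7 CPM and overlapped. LOC102191423, between the cadherin gene FAT2 and the amino acid transporter gene SLC36A2 on chromosome 7, had 40.9 ± 1.91 and 25.0 ± 3.08 CPM and varied least of the members in cashmere goats, by 1.097 times from lowest to highest. LOC102182748 had 26.5 ± 1.47 and 15.8 ± 2.41 CPM. LOC108635517 had 24.9 ± 4.69 and 12.8 ± 1.23 CPM. LOC102177552, beside the adiponectin receptor gene ADIPOR1, had 17.5 ± 2.08 and 9.24 ± 1.54 CPM, and LOC102173997 had 14.2 ± 1.46 and 8.36 ± 0.894 CPM.

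**Figure D3:**
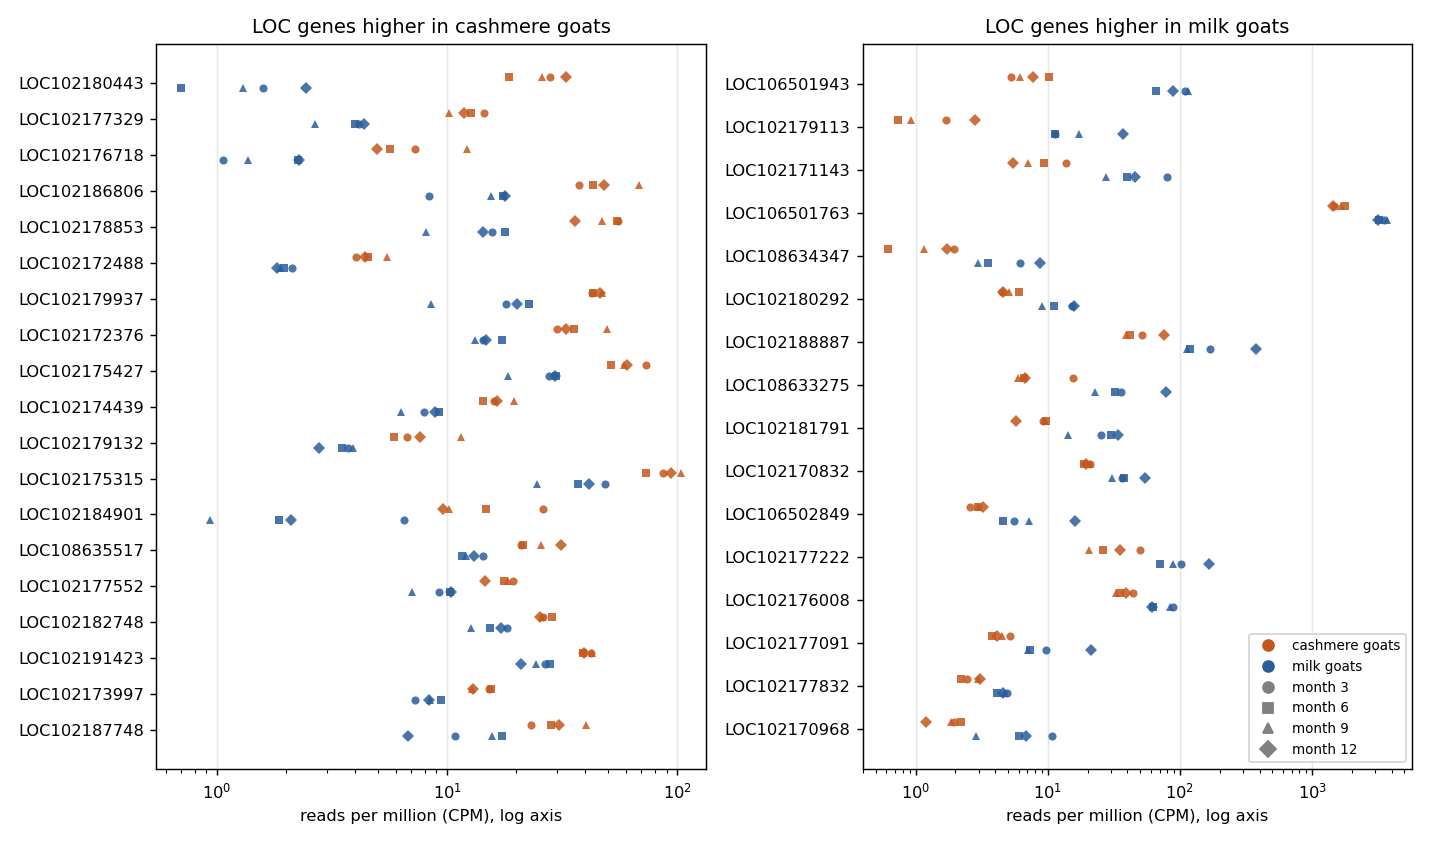
CPM (log axis) of each chosen gene in the 8 libraries, ordered by gap, with colours for breed and shapes for month. In every row the 4 orange points of cashmere goats and the 4 blue points of milk goats do not overlap, which is how the genes were chosen. The distance between the colours is widest in the top row of each panel.

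Among the other genes higher in milk goats, LOC102188887 was the most abundant. It lies on chromosome 18 after SLC6A2, the noradrenaline transporter gene, where the human genome holds carboxylesterase genes, whose enzymes cleave esters of lipids and drugs. Cashmere goats had 51.2, 41.6, 39.3 and 76.2 CPM and milk goats 168.4, 118.4, 113.3 and 378.0 CPM at months 3, 6, 9 and 12. Month 12 was highest in both breeds. Its log2 difference was -1.88 ± 0.17 (SE), whereas LOC102188072 of the same stretch had 30.9 ± 14.9 and 31.5 ± 14.7 CPM (SD, n = 4 per breed).

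LOC108633275 follows TRAPPC5, a gene of vesicle tethering, on chromosome 7, near the immune lectin genes FCER2 and CLEC4G. It had 15.4, 6.62, 5.96 and 6.68 CPM in cashmere and 35.7, 32.2, 22.9 and 78.5 CPM in milk goats. TRAPPC5 itself separated the same way, at 72.1 ± 6.29 and 158.3 ± 35.5 CPM. LOC102181791, a transcribed pseudogene on chromosome 13, had 9.18, 9.69, 9.52 and 5.75 CPM in cashmere and 25.4, 29.9, 14.3 and 33.8 CPM in milk goats. Its neighbour KIZ, a centrosome gene, also separated, at 8.17 ± 2.12 and 18.3 ± 4.34 CPM, while RALGAPA2 on the other side had 18.3 ± 6.5 and 17.5 ± 5.15 CPM. The counting is not stated to use strand, so reads shared between overlapping neighbours cannot be told apart.

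LOC102177222, on the X chromosome beside GPR119, a lipid-sensing receptor gene, had 49.8, 26, 20.6 and 35.4 CPM in cashmere and 101.7, 71.2, 88.1 and 165.0 CPM in milk goats. LOC108634347, also on X, was low, with 1.94, 0.613, 1.15 and 1.74 CPM against 6.18, 3.50, 2.95 and 8.71 CPM. The lowest of these libraries held 5 reads. LOC102176008, between TRIM45 and VTCN1 on chromosome 3, had 44.1, 35.1, 32.8 and 39.2 CPM in cashmere and 88.0, 62.8, 84.6 and 61.3 CPM in milk goats, and VTCN1, an immune checkpoint gene, had a higher mean in cashmere goats but overlapped, at 6.40 ± 2.47 and 2.84 ± 0.973 CPM.

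LOC102170832, beside ITPR3, an intracellular calcium channel gene, was even in cashmere goats, with 19.96 ± 1.14 CPM against 39.8 ± 10.3 CPM in milk goats (SD, n = 4 per breed). LOC102180292 had 5.03 ± 0.695 and 12.8 ± 3.25 CPM. LOC102177091, beside PPFIBP1, had 4.40 ± 0.585 and 11.3 ± 6.75 CPM, and LOC106502849, a transcribed pseudogene beside NCALD, 2.93 ± 0.257 and 8.36 ± 5.27 CPM. In both of these the milk goat SD came mostly from month 12, at 21.3 and 16.1 CPM. LOC102177832, a non-coding model between ZC3H4 and SAE1, was steadier, with 2.68 ± 0.416 and 4.59 ± 0.339 CPM.

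Properties that the rule did not use were counted over the 35 genes. The deposited table classes 6 of them (17.1%) as miscellaneous RNA, beside 86 of 979 LOC genes (8.78%) and 87 of all 12552 genes (0.693%). RefSeq lists 5 of the 35 (14.3%) as pseudogenes, beside 79 of 979 (8.07%). The length used for FPKM had a median of 0.536 times the median of all genes, with a range of 0.154 to 3.16, beside 0.65 for LOC genes. It was under 0.5 times that median for 17 of 35 (48.6%), for 37.2% of LOC genes and for 15.7% of all genes. The longest was LOC106501763 at 3.16 and the shortest LOC102177091 at 0.154.

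Of the 35 genes, 32 are placed on chromosomes of ARS1.2, and each was set beside its nearest neighbour on either side with a mean of at least 3 CPM. Of all genes at this level, 1.24% passed the rule towards cashmere goats and 1.03% towards milk goats. Of these 64 neighbours, 6 separated the breeds the same way under the same rule and 0 the opposite way. The 6 were the adjacent pair LOC102178853 and LOC102179132 and the pair LOC102171143 and LOC102170968, each counted from both sides, with TRAPPC5 and KIZ. In sign alone, 23 of 34 neighbours of cashmere-high genes had a higher mean in cashmere goats, beside 61.7% of all genes at this level, and 15 of 30 neighbours of milk-high genes had a higher mean in milk goats. Only TRAPPC5 and KIZ passed without being members themselves. As few genes pass the rule at all, nothing is read from the neighbours that did not.

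The size of the difference in CPM, which is scaled by column totals, varied with the month. The scaling factor by the trimmed mean of M-values was 0.783 for the milk goat library of month 9. For the other libraries it was 0.989 to 1.131, so ratios at month 9 depend on the scale. The median log2 ratio of the 19 cashmere-high genes was 1.08, 0.92, 1.66 and 1.20 at months 3, 6, 9 and 12, and that of the 16 milk-high genes -1.36, -1.46, -1.32 and -2.33. For 13 of 19 the largest fold was at month 9, and for 10 of 16 at month 12. The share of all genes with the largest fold in these months was not counted. The all-gene median log2 ratio was 0.08, 0.01, 0.41 and 0.02 in the same order, so it also leaned to cashmere goats at month 9. In that month TCHH took 129600 CPM of the milk goat library and 48920 CPM of the cashmere goat library. The part of TCHH in the month 9 ratios was not tested. The cashmere level peaked at month 9 in 10 of 19 cashmere-high genes (52.6%), beside 20.7% of all genes, and the milk level peaked at month 12 in 10 of 16 milk-high genes (62.5%), beside 31.5% of all genes. The milk goat library of month 12 also had the highest sum of nuclear-retained transcripts. It had the lowest sums of hair shaft keratins, inner root sheath genes and hair matrix regulators, at 67.5, 3368 and 218.7 CPM. Other milk goat libraries reached up to 1829, 139300 and 1108 CPM in that order. Cashmere goats had 885.5 to 2062, 25250 to 75750 and 716.5 to 1495 CPM. The part of RNA quality and of follicle content in the month 12 values was not tested. In each direction 7 genes were at least 2-fold apart in every month.

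**Figure D4:**
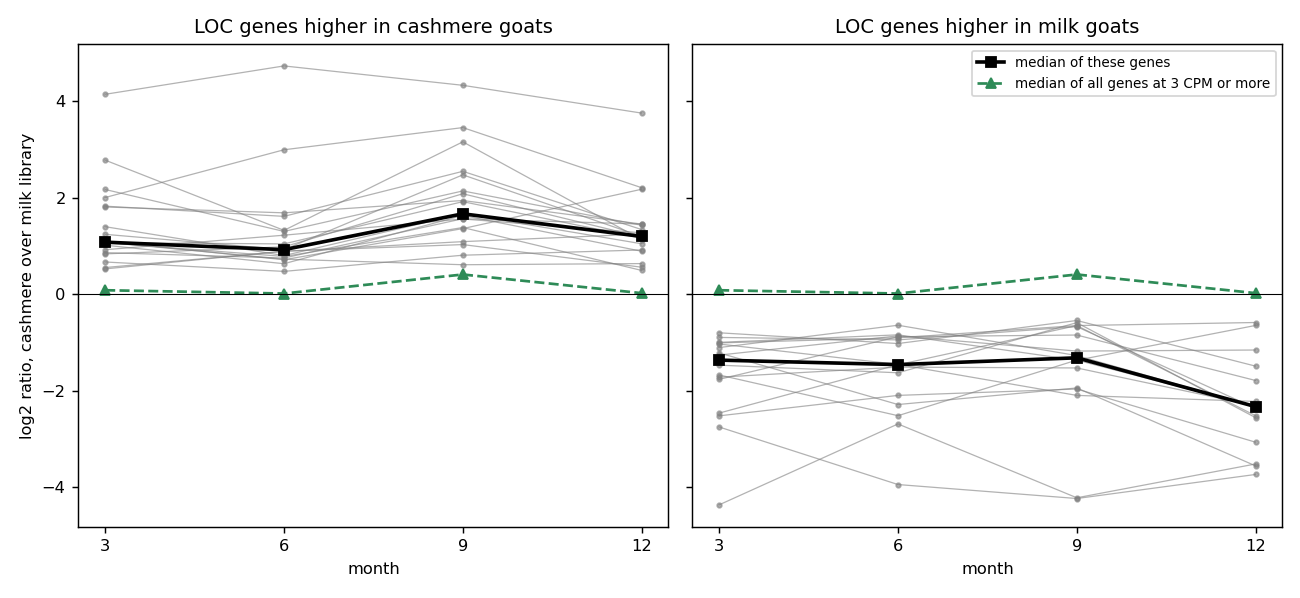
Log2 ratio of the cashmere over the milk library at months 3, 6, 9 and 12, for the 19 cashmere-high genes (left) and the 16 milk-high genes (right), 1 thin line per gene. Black squares are the medians of the genes shown and green triangles the median of all genes at 3 CPM or more. The left median is highest at month 9 (1.66), where the green line also rises to 0.41, and the right median is lowest at month 12 (-2.33).

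In edgeR's quasi-likelihood fit of month and breed over 14085 genes, 32 of the 35 were called between the breeds at a Benjamini-Hochberg adjusted p of 0.05, 17 higher and 15 lower in cashmere goats. Of all genes, 1.47% were called higher and 3.32% lower in cashmere goats. As the genes were selected on this contrast, the count is a description from which nothing is read. Leaving out 1 library ended most of these calls: 0 were left without cashmere month 9 and 1 without milk month 9. Without month 3 of either breed 2 were left, and without month 6 of either breed 3. Without month 12 of cashmere or milk goats, 29 and 28 were left. The share of all genes called in these fits was not counted. A loss of calls over all genes therefore cannot be told from a loss in these genes alone. The 3 not called with all libraries were LOC102173997, LOC102182748 and LOC102177832. Scaled by column totals, as in the CPM above, the median log2 difference of all genes was 0.14, against 0.03 with the trimmed mean of M-values (TMM) used in the fit, so small cashmere-high values depend on the scale. With CPM on TMM sizes, 14 genes in place of 19 passed the rule towards cashmere goats and 28 in place of 16 towards milk goats, so that 33.3% in place of 54.3% were cashmere-high, and with DESeq2's size factors (RLE) 32.6%. LOC102173997, LOC102179132, LOC102187748, LOC102191423 and LOC108635517 left the cashmere-high group under both scalings.

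The month contrast was not used by the rule, although a gene whose breeds do not overlap tends to have small month changes. The edgeR test of month called 0 of the 35, where 0% of all 14085 genes were called. At an unadjusted p of 0.05, 7 of the 35 and 1894 of all genes passed. The lowest unadjusted p was that of LOC102188887 (edgeR adjusted p = 0.324), whose fitted level was 1.03 (log2) higher at month 12 than at month 3. DESeq2 called 4 of the 35 for month, beside 4.04% of its 13265 genes: LOC102188887 (adjusted p = 8.18e-05), LOC102184901 (0.0178), LOC102179113 (0.0341) and LOC102186806 (0.0397). The levels of LOC102184901 were highest at month 3 in both breeds, those of LOC102179113 at month 12, and LOC102186806 was lowest at month 3. Without the cashmere library of month 12, edgeR called 3 for month, LOC102188887, LOC102187748 and LOC102177091, beside 8.22% of 14352 genes. An interaction of breed with a 12-month cycle was called by edgeR for 0 of the 35 and 0% of all genes, with 1 of the 35, LOC102177222, at an unadjusted p under 0.05 (edgeR adjusted p = 0.489), and DESeq2 called 0 of the 35 and 80 of 12719 genes. In bulk skin, fewer cells of a type and less RNA per cell cannot be told apart, and with 1 library per breed and month these p-values measure only the spread between libraries.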

How the data were processed

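Polyadenylated RNA from skin was sequenced in paired-end directional libraries, per the labels' protocols. Bowtie2 is named in the submitters' processing notes. What it was used for, its version, the genome build and any use of strand were not given in the sources used here. Raw read counts per gene were deposited by the authors for 18815 genes, with FPKM for the same genes and raw read counts for another gene set of 20780 genes, in which 0 of the 35 members were found by symbol. FPKM were computed by the authors. Apart from a scale of its own for each library, the ratio of reads to FPKM was constant to within 0.0163% in a check of 368 genes. The total behind FPKM was set over the total of the listed genes, relative to cashmere month 3. It was 0.9485 to 1 in cashmere and 0.9987 to 1.107 in milk goats. One table names the cashmere goats with the transliterated word for cashmere down, and all 8 columns matched the same breed and month of the other table best over 12073 shared symbols.

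From the counts, CPM were computed on column totals, and the rule was applied to the 8 libraries. Counts were fitted with edgeR 4.0.16 in R 4.3.3 (filterByExpr on breed, TMM, month as a factor plus breed, 3 residual degrees of freedom, quasi-likelihood F test, Benjamini-Hochberg threshold 0.05). Breed by season used a cosine and a sine term with a period of 12 months and left 2 residual degrees of freedom. Alternatives were DESeq2 1.42.0, RLE factors, library totals, no filter, no month term, limma 3.58.1 on log2 FPKM, other limits of the rule and libraries left out. The edgeR fit was tested on simulated data. Biotypes and neighbours came from RefSeq's ARS1.2 table, where all 35 symbols matched, and 98.96% of 18266 genes lay on the chromosome that their sequence in the file maps to. Poisson 95% intervals and the limit of 3 reads cover counting error only, since PCR copies were not marked by molecular identifiers.

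The members and gene lists were chosen with earlier results of these data known. Genes were named by a rule: the 12 with the largest gap in each direction, 4 given with the choice of the set, and 3 on either side of the gap. The remaining members and the neighbours were named to account for every member and were chosen after their values were seen. A planned grouping by product was left out because the files give no products. No sequences are shown.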

Additional observations from a re-analysis of the deposited data

Results flagged for a closer look

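Within each breed's 4 libraries, the gap between the most extreme library and the next was set against the whole range for every member (Dixon's test at the 95% level). Of 70 such groups, 2 exceeded it, where chance flags about 1 in 20. LOC108633275 was high in cashmere goats at month 3, at 15.39 CPM, while the other 3 libraries lay between 5.96 and 6.68 CPM. LOC102181791 was low in cashmere goats at month 12, at 5.749 CPM, while the others lay between 9.18 and 9.69 CPM. In both genes every cashmere library lay below every milk library, which the rule required of each milk-high gene and which is no test.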

How the results depend on the processing

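The number of chosen genes depended on the limits of the rule. Of 19 cashmere-high and 16 milk-high genes, a gap of 1 in place of 1.3 gave 91 and 54, one of 1.5 gave 12 and 6, and one of 2 gave 5 and 3. A mean of at least 10 CPM left 10 milk-high genes. TMM and RLE scaling gave 28 and 29 milk-high genes, with all 16 kept. With FPKM, LOC102170968 and LOC102176008 dropped out. Leaving out 1 library gave 19 to 35 cashmere-high genes (highest without cashmere month 12) and 15 to 39 milk-high genes (highest without milk month 9). Counts of cashmere-high genes were 52 without both libraries of month 12 and 40 without the milk libraries of months 3 and 12, alternatives chosen after seeing the data. Fewer libraries make non-overlap easier. LOC102172488 dropped out without cashmere month 9, and LOC108634347 without milk month 3 or 12. Log2 differences of all 35 genes moved by less than 1 SD over the months under library totals and RLE. In place of the 32 breed calls, the model without the month term gave 27. Month is the block here because each month holds 1 library of each breed. Other fits with all libraries gave 29 to 33, with DESeq2 at 33, beside 11.7% of its 13538 genes. Leaving out 1 library gave 0 to 29 (0 without cashmere month 9, 1 to 3 without either breed's months 3 or 6 or milk month 9). The share of all genes called on leaving out 1 library was not counted, and the cause was not tested. For month, 0 calls became 4 with DESeq2, beside 4.04% of its genes, and 0 to 3 on leaving out 1 library. Without the milk libraries of months 3 and 12 they became 3, where the share of all genes was not counted. Season calls stayed at 0 in every fit run. The rule could not be run on the second gene table, since no member is listed there by symbol. Depth limits LOC108634347, LOC102179113, LOC102180443 and LOC102170968 most, whose lowest library holds 5, 6, 9 and 9 reads.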
